A study of Mus musculus with 6 samples.

Results

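A set of 7 genes around the amino acid arginine was followed in tumour macrophages: the nitric oxide synthase Nos2, the arginases Arg1 and Arg2, the arginine transporter Slc7a2, and Ass1, Odc1 and Gch1, which supply or use what these enzymes make. They were chosen by name as the genes through which macrophages split arginine between nitric oxide and ornithine, and are 7 of the 53647 genes in the expression table. All 7 had an entry, and 6 of them had enough counts to be tested between groups, Arg1 being the exception. Orthotopic pancreatic ductal adenocarcinoma (PDAC) tumours, grown in the pancreas itself, were raised in C57BL/6 mice, and macrophages taken from them were sorted by their expression of Cxcr4, a chemokine receptor. The series holds 3 RNA-seq libraries of the Cxcr4+ and 3 of the Cxcr4- fraction and asks what sets the Cxcr4+ macrophages apart. Both groups share the strain, the tumour model and the cell type. The age and sex of the mice, the tumour line implanted, and whether tumours were pooled are not stated in the labels. The labels also leave unsaid whether libraries of 1 group stem from different mice, and whether same-numbered libraries of the 2 groups share mice. Their p-values therefore measure only the spread between these libraries, which may be technical.

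Arginine enters macrophages through cationic amino acid transporters, of which Slc7a2 is the one known to be induced on activation. Inducible nitric oxide synthase (Nos2) turns arginine into nitric oxide and citrulline with the cofactor tetrahydrobiopterin, whose synthesis starts with GTP cyclohydrolase (Gch1). Argininosuccinate synthase (Ass1) starts the return of citrulline to arginine. Arginase 1 in the cytosol and arginase 2 in mitochondria cleave arginine to urea and ornithine, and ornithine decarboxylase (Odc1) turns ornithine into putrescine, the first polyamine. Nos2 is widely used as a marker of macrophages activated by interferon gamma and bacterial products, and Arg1 of macrophages activated by interleukin 4 and of many mouse tumour macrophages.

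Promoters of 3 of the 7 genes, Odc1, Ass1 and Gch1, were found in the RefSeq table used here (build GRCm38.p6), while Nos2, Arg1, Arg2 and Slc7a2 were not matched. They are shown because no other gene of the set was matched there. Odc1 was the most abundant gene of the set, and Gch1 and Ass1 were of lower abundance. Each sequence runs 5′ to 3′ on the strand of the gene, from 250 bases before to 50 bases after the annotated start. Capitals mark every match, on either strand, to the letters GGGCGG (the GC box bound by Sp1), to CCAAT (the CCAAT box), to TATAAA (the TATA box), to CACGTG (an E-box) or to TGACG (the core of a cyclic AMP response element). A match on the opposite strand appears as the reverse complement, such as CCGCCC.
Odc1, chr12:17544623-17544922, plus strand: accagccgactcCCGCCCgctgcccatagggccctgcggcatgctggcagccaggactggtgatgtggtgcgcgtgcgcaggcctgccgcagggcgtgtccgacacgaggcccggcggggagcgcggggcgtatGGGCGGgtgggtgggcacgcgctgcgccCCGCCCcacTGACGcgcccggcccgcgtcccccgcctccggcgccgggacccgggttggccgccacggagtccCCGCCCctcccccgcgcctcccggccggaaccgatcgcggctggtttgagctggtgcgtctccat
Ass1, chr2:31470020-31470319, plus strand: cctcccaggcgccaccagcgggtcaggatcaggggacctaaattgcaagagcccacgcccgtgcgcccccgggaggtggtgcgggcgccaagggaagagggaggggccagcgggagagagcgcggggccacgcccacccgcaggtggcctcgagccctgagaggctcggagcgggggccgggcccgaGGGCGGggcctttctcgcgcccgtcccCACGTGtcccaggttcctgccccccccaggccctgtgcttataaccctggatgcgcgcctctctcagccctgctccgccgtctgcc
Gch1, chr14:47189364-47189663, minus strand: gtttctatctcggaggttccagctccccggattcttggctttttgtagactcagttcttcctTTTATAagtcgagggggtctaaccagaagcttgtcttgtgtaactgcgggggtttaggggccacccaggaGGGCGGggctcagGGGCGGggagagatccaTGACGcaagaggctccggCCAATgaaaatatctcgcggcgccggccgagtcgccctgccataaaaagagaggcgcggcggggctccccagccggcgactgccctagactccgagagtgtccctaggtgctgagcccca
The Odc1 window, with a GC content of 78.0%, held 4 GC boxes and 1 TGACG, which lay 79 bases upstream of the start. The Ass1 window (74.0% GC) held 1 GC box and 1 CACGTG, 36 bases upstream. The Gch1 window (60.3% GC) held 2 GC boxes, CCAAT 70 bases upstream, TGACG 88 bases upstream and TATAAA on the opposite strand 188 bases upstream. Of 32851 promoters of the same length, 35.7% held GGGCGG, 37.4% CCAAT, 20.8% TGACG, 13.6% TATAAA and 7.15% CACGTG. These matches are descriptions of the letters in the windows, not of factor binding.

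Each library held between 46444934 and 55740671 assigned counts and between 19457 and 20433 genes above 0. Cxcr4 itself, which the sort used, measured 9.04 to 9.59 FPKM in the Cxcr4+ and 5.97 to 8.56 FPKM in the Cxcr4- libraries (log2 fold change 0.27, SE 0.19, adjusted p = 0.999, edgeR quasi-likelihood test). FPKM counts fragments relative to transcript length and to the mapped fragments of the library, so it allows levels to be compared between genes. The macrophage label held against its markers: 7 of 8, among them Lyz2, Cd68, Csf1r and Adgre1, had means over 1 FPKM, while the mannose receptor Mrc1 stayed at or below 0.0838 FPKM. The summed level of 12 neutrophil markers was 6.66 to 10.2 FPKM, most of it S100a8 (4.99 to 8.08 FPKM) and Csf3r (1.06 to 1.44 FPKM), with S100a9 at 0 in all 6 libraries, and those of dendritic, T and NK, B, mast, endothelial and acinar markers each stayed at or below 0.614 FPKM. Epithelial or tumour markers summed to 1.19 to 2.52 FPKM in Cxcr4+ and 2.28 to 4.58 FPKM in Cxcr4-, and monocyte markers to 49.6 to 62.3 and 51.0 to 61.3 FPKM. Whether other cells had a part in any value below was not tested. The 2 libraries numbered 2, one of each group, stood apart across genes (chi-square per degree of freedom of 20.4 to 32.1 against the other 4, and of 11.7 to 17.8 among those), and values without them are given where they matter.

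Transcript abundance over the 7 genes ran in 1 order in all 6 libraries: Odc1, Nos2, Arg2, Gch1, Ass1, Slc7a2 and Arg1, from high to low. No neighbours in this order had overlapping FPKM ranges. The mean FPKM of Odc1 was 13.7 times that of Nos2, that of Nos2 was 4.67 times that of Arg2, and that of Arg2 was 2.56 times that of Gch1. Gch1 in turn stood 3.58 times above Ass1, and Ass1 4.28 times above Slc7a2. The order was the same in both groups, with Nos2 far above Arg1 in each.

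**Figure D1:**
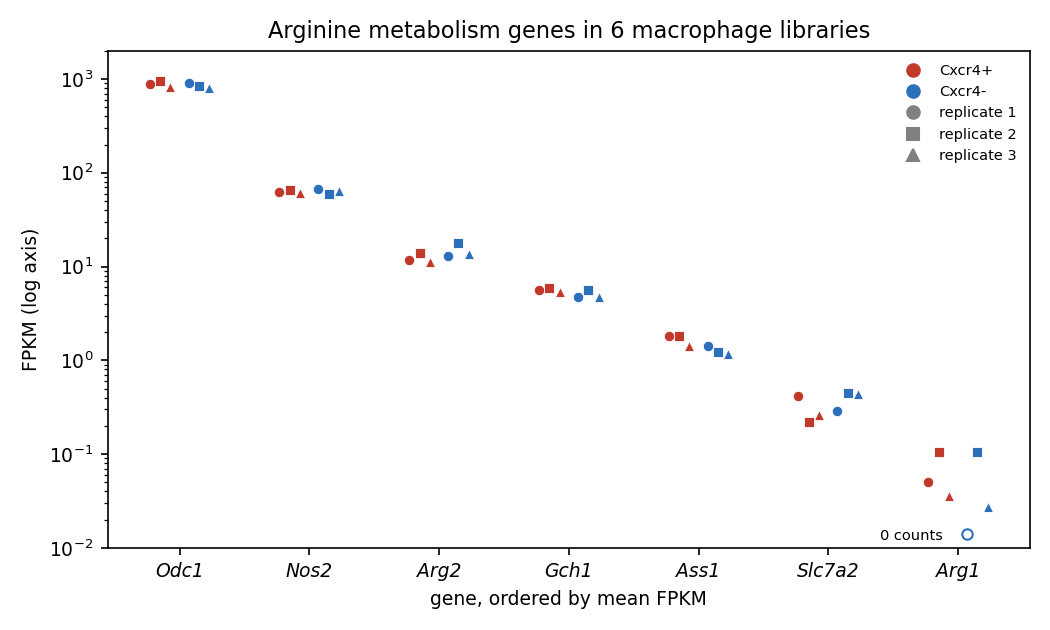
FPKM of the 7 genes (log axis) in each of the 3 Cxcr4+ (red) and 3 Cxcr4- (blue) libraries, with the marker shape giving the replicate number; the open circle is the library with 0 counts of Arg1. The genes fall into 7 separate bands, from Odc1 at 800.5 FPKM or more to Arg1 at 0.106 FPKM or less, with the groups side by side in each band.

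Between the groups, 0 of the 6 tested genes passed an adjusted p of 0.05 (edgeR), against 5 of 16031 genes tested (0.0312%), 2 higher and 3 lower in Cxcr4+. None of the 6 had an unadjusted p under 0.05 by edgeR, by DESeq2 or by limma on log2(FPKM + 1), against 4.85% of all genes by edgeR. FPKM of the groups overlapped for all 7 genes, while 10.4% of the genes tested had groups that did not overlap. Of the 6 log2 fold changes, 3 were positive (Ass1, Gch1, Odc1) and 3 were negative (Slc7a2, Arg2, Nos2). Their median was 0.0, beside 0.0004 over all genes tested.

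Slc7a2 (chr8:41315433-41375345, plus strand, build GRCm39 as for all gene positions here) was low, with 118 to 244 counts per library. It measured 0.42, 0.219 and 0.264 FPKM in Cxcr4+ libraries 1 to 3 and 0.285, 0.447 and 0.437 FPKM in Cxcr4- libraries 1 to 3. The groups overlapped, with Cxcr4+ library 1 among the high ones. Its coefficient of variation over 6 libraries, 29.1%, was the widest among the 6 tested genes of the set. The log2 fold change of Slc7a2, Cxcr4+ minus Cxcr4- as throughout, was -0.36 (SE 0.31, 95% interval -1.09 to 0.38, adjusted p = 1.0, edgeR). Without Cxcr4+ library 1 it was -0.7 (unadjusted p = 0.0468, adjusted p = 0.998, edgeR), and with libraries 1 and 3 alone -0.08. Cxcr4+ library 1 was also the library with the highest summed level of 8 fibroblast markers, 11.1 FPKM, led by Col1a1, against 1.05 to 2.48 FPKM in the Cxcr4- libraries. Whether those transcripts had a part in the Slc7a2 value was not tested.

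Of the other carriers, Slc7a3 was lower still at 0.129 ± 0.0405 FPKM (mean ± SD, n = 6), and Slc7a1 and Slc7a6 were more abundant than Slc7a2. Slc7a1, the constitutive arginine transporter, measured 13.2 ± 1.5 FPKM (mean ± SD, n = 6), and Slc3a2, the heavy chain that pairs with several light-chain carriers, 54.0 ± 3.51 FPKM. Slc7a1 gave a log2 fold change of 0.00 (95% interval -0.23 to 0.24). Slc3a2 was 51.8 ± 3.71 FPKM in Cxcr4+ and 56.2 ± 1.57 FPKM in Cxcr4- (log2 fold change -0.12, adjusted p = 0.999, edgeR). Of the 6 tested genes of arginine uptake and release, 0 were called, with 3 positive and 3 negative log2 fold changes and a median of -0.06. The values ran from -0.36 to 0.7. The highest was that of the carrier Slc7a7, picked out after its values were seen. It measured 0.533 to 1.12 FPKM in Cxcr4+ and 0.477 to 0.636 FPKM in Cxcr4-, so the groups overlapped (unadjusted p = 0.0616, adjusted p = 0.999, edgeR).

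Nos2 (chr11:78811613-78851080, plus strand) was steadily high. Its level was 62.6, 64.9 and 60.2 FPKM in the Cxcr4+ libraries and 67.0, 59.8 and 64.5 FPKM in the Cxcr4- libraries, resting on 14817 to 17529 counts. The highest and the lowest library both belonged to the Cxcr4- group, so the Cxcr4+ values lay wholly within the Cxcr4- range. By mean FPKM, Nos2 ranked 675 of 53647 genes, and its coefficient of variation, 4.45%, was the smallest of the set. The log2 fold change was -0.04 (SE 0.09, 95% interval -0.26 to 0.18, adjusted p = 1.0, edgeR). In linear terms the interval runs from 0.84-fold to 1.14-fold, which is the range of differences these 6 libraries leave for Nos2. With libraries 1 and 3 alone the log2 fold change was -0.11 (adjusted p = 0.792, edgeR).

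The other nitric oxide synthases were close to absent: Nos1, the neuronal form, reached at most 0.0242 FPKM, and Nos3, the endothelial form, lay between 0.127 and 0.281 FPKM. Nosip, an interaction partner of the synthases, lay between 5.77 FPKM in Cxcr4- library 1 and 12.6 FPKM in Cxcr4- library 2. Nostrin, which binds Nos3 and links it to membrane traffic, measured 6.78 ± 1.56 FPKM in Cxcr4+ and 5.41 ± 0.983 FPKM in Cxcr4- (log2 fold change 0.32, adjusted p = 0.999, edgeR). Of 6 tested synthase and partner genes, 0 were called (3 positive, 3 negative, median 0.09). Ddah1, which degrades the synthase inhibitor dimethylarginine, was among the 10.4% of genes tested whose groups did not overlap. It measured 0.0789 to 0.209 FPKM in Cxcr4+ and 0.025 to 0.0708 FPKM in Cxcr4- (adjusted p = 0.999, edgeR). These values rest on only 19 to 53 counts in Cxcr4+ and 6 to 15 counts in Cxcr4-. Ddah1 was picked out after its values were seen. Its highest value, 0.209 FPKM, came from Cxcr4+ library 1, the one rich in fibroblast markers.

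The genes whose log2 CPM followed Nos2 most closely over the 6 libraries, of 5560 with a mean of at least 5 FPKM, were Rexo1 (Pearson r = 0.9964), Zbtb17 (0.9826) and Dyrk1a (0.9747). In all, 11 genes had an r over 0.95. With 6 libraries and a Nos2 range this narrow, these values are a description only, and the libraries share their depth and scaling.

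Gch1 (chr14:47391352-47426870, minus strand), whose promoter is shown above, was found at 5.56, 5.86 and 5.36 FPKM in Cxcr4+ and at 4.68, 5.57 and 4.71 FPKM in Cxcr4-. In Cxcr4-, libraries 1 and 3 were lower than every Cxcr4+ library, and Cxcr4- library 2 lay among them. The log2 fold change was 0.16 (SE 0.09, 95% interval -0.05 to 0.38, adjusted p = 0.999, edgeR), and with libraries 1 and 3 alone it was 0.21 (adjusted p = 0.706, edgeR). Nos2 stood at 63.2 ± 2.81 FPKM and Gch1 at 5.29 ± 0.488 FPKM (n = 6 each).

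Genes of the tetrahydrobiopterin pathway around Gch1 held 3 of the 4 unadjusted p-values under 0.05 among the 65 pathway genes tested (edgeR). Over all genes tested, 4.85% had such a p-value. Of the 7 genes of the tetrahydrobiopterin pathway, 0 were called by edgeR. Qdpr, which regenerates tetrahydrobiopterin, measured 19.9, 19.0 and 16.7 FPKM in Cxcr4+ and 21.2, 30.9 and 26.1 FPKM in Cxcr4-. Every Cxcr4- library was above every Cxcr4+ library (log2 fold change -0.49, SE 0.13, unadjusted p = 0.00639, adjusted p = 0.953, edgeR). Gchfr, the feedback regulator of Gch1, measured 11.4 ± 1.73 FPKM in Cxcr4+ and 11.3 ± 1.86 FPKM in Cxcr4-. Pts, the enzyme after Gch1, had groups that did not overlap. It measured 1.26 to 1.55 FPKM in Cxcr4+ and 0.796 to 1.2 FPKM in Cxcr4- (adjusted p = 0.999, edgeR). Pts was picked out after its values were seen, and 10.4% of all genes tested had groups that did not overlap. Over the 7 genes, 6 log2 fold changes were positive and 1 negative, with a median of 0.3.

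Ass1 (chr2:31360219-31410684, plus strand) was low, with 150 to 276 counts per library. It measured 1.81, 1.80 and 1.43 FPKM in Cxcr4+ and 1.43, 1.22 and 1.17 FPKM in Cxcr4-. Cxcr4+ libraries 1 and 2 were above all the others, and Cxcr4+ library 3 was just below the highest Cxcr4- library, so the groups overlapped by a hair. The log2 fold change was 0.38 (SE 0.2, 95% interval -0.08 to 0.84, adjusted p = 0.999, edgeR), and it ran from 0.3 to 0.5 when each library in turn was left out. Asl, which completes the recycling of citrulline, was more abundant at 7.89 ± 0.704 FPKM (n = 6) and gave a log2 fold change of 0.06 (adjusted p = 1.0, edgeR). The liver urea cycle enzymes were at or near 0, with Otc and Nags at 0 counts in all libraries and Cps1 at 4 counts in 1 library. Of the 4 tested genes of citrulline recycling and the urea cycle, Ass1, Asl and the ornithine carrier Slc25a15 gave positive values and Arg2 a negative one, and 0 were called.

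**Figure D2:**
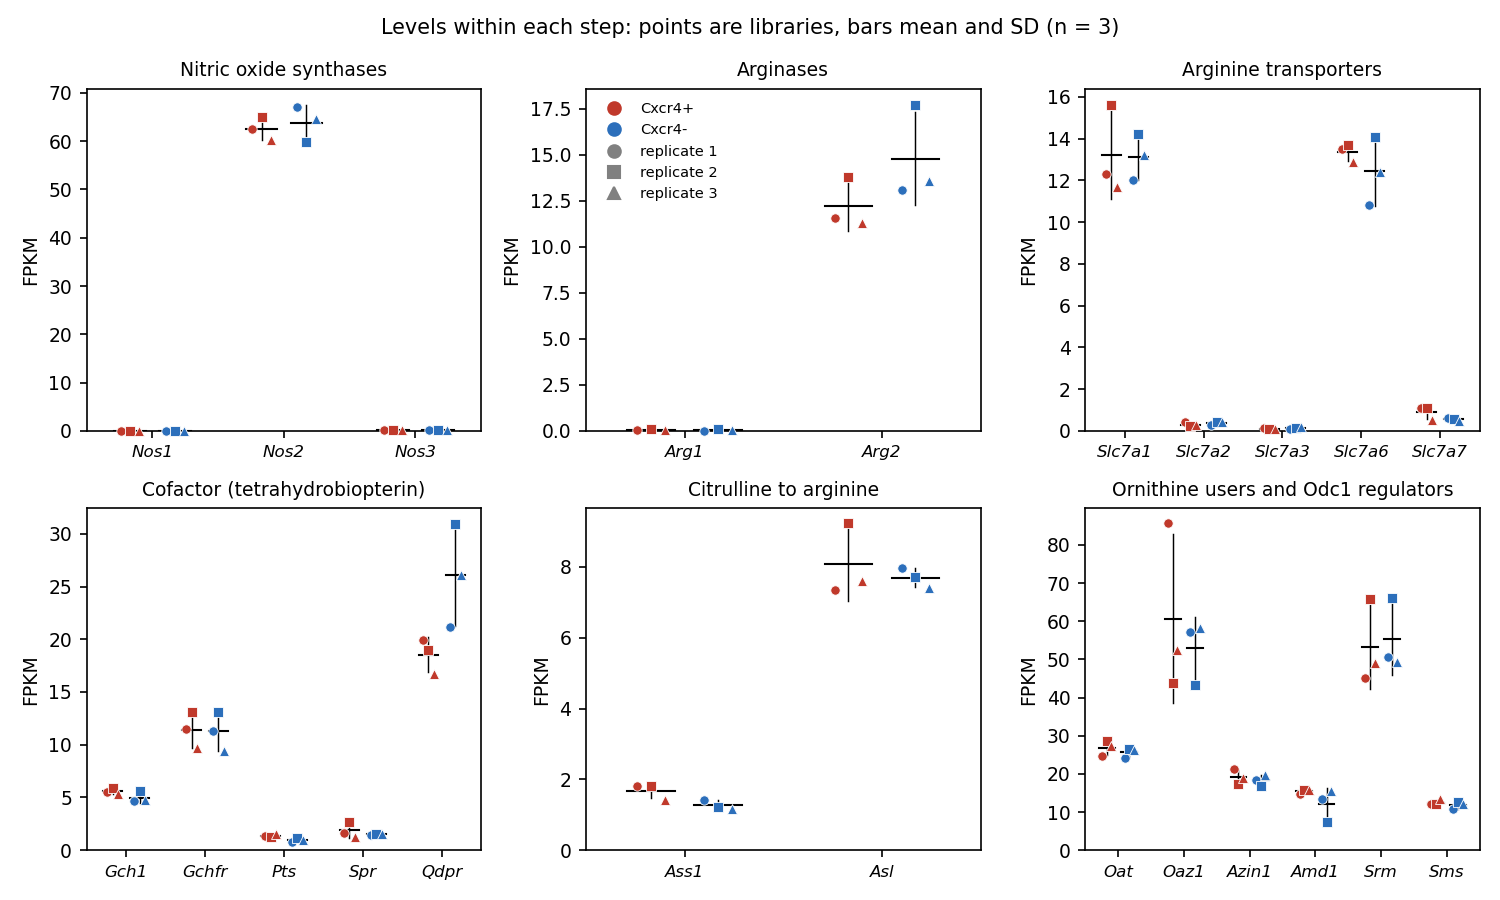
FPKM (linear axes that start at 0) of single libraries in 6 steps of arginine metabolism, Cxcr4+ in red and Cxcr4- in blue, with mean and SD of 3 libraries as black lines. Nos2 is the only synthase and Arg2 the only arginase above 1 FPKM, Slc7a1 and Slc7a6 exceed Slc7a2, and Qdpr is lower in every Cxcr4+ than in every Cxcr4- library without passing the adjusted test.

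Arg1 (chr10:24791119-24803382, minus strand), the arginase usually associated with tumour macrophages, was at the limit of detection. It had 8, 14 and 5 counts in the Cxcr4+ and 0, 14 and 4 counts in the Cxcr4- libraries, or 0.0507, 0.105 and 0.0359 FPKM and 0, 0.106 and 0.0273 FPKM. Both libraries numbered 2 were the high ones, in either group alike. Low values in the count table fell on multiples of 4 more often than evenly spread counts would (43.2% of counts from 1 to 20, against 25.0%), so 1 fragment may be worth 4 counts. The limit that a count of 0 allows was therefore set at 3 such units, or 12 counts, which is 0.0804 to 0.0968 FPKM by library. Only the 2 libraries numbered 2 exceeded it. Arg1 did not reach the count filter, no fold change between groups is given, and a difference was not detectable at this depth. By mean FPKM it ranked 17918 of 53647 genes. In bulk RNA, a few cells with much Arg1 and many cells with little cannot be told apart, and the same holds for every gene here.

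Arg2 (chr12:79177551-79203075, plus strand), the mitochondrial arginase, supplied nearly all arginase transcript. It measured 11.6, 13.8 and 11.3 FPKM in Cxcr4+ and 13.1, 17.7 and 13.6 FPKM in Cxcr4-, from 955 to 1411 counts. Cxcr4- library 2 was the highest. Cxcr4+ library 2 came next, above Cxcr4- libraries 1 and 3, and the groups overlapped through this Cxcr4+ library alone. Arg1 made up at most 0.752% of the summed arginase FPKM in any library. The group means were 12.3 ± 1.36 FPKM and 14.8 ± 2.53 FPKM (SD, n = 3), and the log2 fold change was -0.27 (SE 0.13, 95% interval -0.57 to 0.02, unadjusted p = 0.0664, adjusted p = 0.999, edgeR). With the libraries numbered 2 as a term in the fit the value stayed at -0.27 (unadjusted p = 0.0161, adjusted p = 0.456, edgeR). With replicate numbers taken as pairs it was also -0.27 (unadjusted p = 0.0278, adjusted p = 0.513, edgeR). With libraries 1 and 3 alone it was -0.22, and without Cxcr4- library 2 it was -0.17. The sign was negative in all 18 alternative settings, and the adjusted p in these was never below 0.456. The 3′ end of Arg2 shares 285 bases with Vti1b on the opposite strand, a gene with 4437 to 6173 counts. Since no source states whether counting used strand, reads of the 2 genes in that stretch cannot be told apart.

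Set against each other, Nos2 exceeded the summed FPKM of both arginases 5.37, 4.66 and 5.29 times in the Cxcr4+ libraries and 5.13, 3.36 and 4.73 times in the Cxcr4- libraries. The lowest ratio was that of Cxcr4- library 2, the library with the most Arg2, and the rest of the values of the groups overlapped. Mean log2 ratios were 2.35 ± 0.11 and 2.12 ± 0.32 (SD, n = 3), a difference of 0.23 with a two-sided exact permutation p of 0.3, where 3 libraries against 3 allow no p below 0.1. Without Cxcr4- library 2 the difference was 0.05, and with libraries 1 and 3 alone it was 0.11. Against Arg1 alone, Arg1 was raised to the 12-count limit where it was below it. Nos2 was then 779-fold and 700-fold higher in Cxcr4+ libraries 1 and 3. In Cxcr4- libraries 1 and 3 it was 749.6-fold and 667-fold higher. These values depend on the chosen limit. In the libraries with 8, 5 and 4 counts of Arg1 they are not strict bounds. In the libraries numbered 2, the ratio itself was 620 in Cxcr4+ and 564 in Cxcr4-, each resting on only 14 counts of Arg1. The log2 values differed by 0.09 between groups (exact permutation p = 0.6). In this comparison 4 of 6 values use the chosen limit, and the sign changes with the handling of Arg1.

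**Figure D3:**
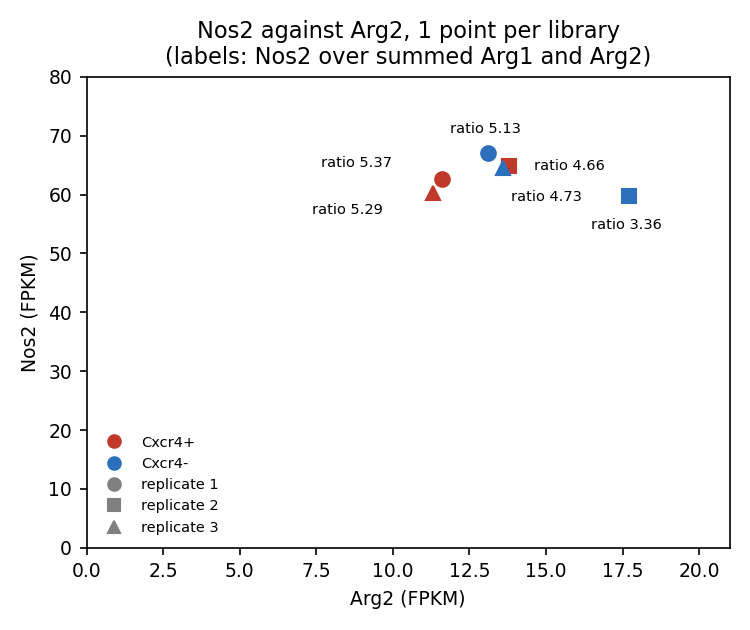
Nos2 against Arg2 (FPKM, linear axes from 0), 1 point per library, Cxcr4+ in red and Cxcr4- in blue, each labelled with Nos2 over the summed FPKM of Arg1 and Arg2. The other libraries lie together at ratios of 4.66 to 5.37, and Cxcr4- library 2 lies to the right at 3.36 with 17.7 FPKM of Arg2.

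Odc1 (chr12:17594795-17601085, plus strand), the polyamine enzyme fed by ornithine and the gene with 4 GC boxes in its promoter window, was the most abundant of the set. It measured 882, 955 and 812 FPKM in Cxcr4+ and 902, 850.5 and 800.5 FPKM in Cxcr4-, ranking 56 of 53647 genes and taking 0.307% to 0.366% of all counts. The 3 values of each group were interleaved. The log2 fold change was 0.04 (SE 0.09, 95% interval -0.15 to 0.24, adjusted p = 1.0, edgeR), which in linear terms spans 0.9-fold to 1.18-fold. A small nucleolar RNA, Gm22748, lies within Odc1 on the same strand and had 341 to 534 counts, against 142795 to 190904 for Odc1.

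Downstream of ornithine, no gene was called. Eif5a, the translation factor that carries the hypusine made from spermidine, was the most abundant polyamine gene after Odc1 at 379 ± 44.9 FPKM (n = 6), with 354 ± 40.2 FPKM in Cxcr4+ and 405 ± 38.6 FPKM in Cxcr4- (log2 fold change -0.21, adjusted p = 0.999, edgeR). Of 14 polyamine genes tested, 10 log2 fold changes were positive and 4 negative, with a median of 0.06 and a range of -0.21 to 0.33. Oat, which turns ornithine toward glutamate and proline, measured 26.3 ± 1.67 FPKM, and Aldh18a1, which makes the proline precursor from glutamate, 26.0 ± 3.29 FPKM. Their log2 fold changes were 0.06 and -0.01. No gene of this branch was called, and the 7 genes of this branch had a median of -0.0 with 3 positive and 4 negative values.

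Other users of arginine did not pass the test either. Rars1, the arginyl-tRNA synthetase, measured 69.1 ± 12.5 FPKM, with both libraries numbered 2 highest at 86.2 and 83.1 FPKM. Gatm, the first enzyme of creatine synthesis, measured 30.5 ± 2.47 FPKM in Cxcr4+ and 27.4 ± 3.49 FPKM in Cxcr4- (log2 fold change 0.15). Prmt5, an arginine methyltransferase, gave 13.5 ± 1.53 and 15.4 ± 1.96 FPKM (log2 fold change -0.20, unadjusted p = 0.0917, adjusted p = 0.999, edgeR). Across the 5 genes, 2 values were positive and 3 negative (median -0.1).

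Apart from Pparg, the listed regulators known to induce these enzymes were present in both groups. For Nos2 and Gch1, the interferon gamma receptor chain Ifngr2 measured 22.5 ± 4.54 FPKM, the NF-kappaB subunit Rela 15.4 ± 1.02 FPKM and the transcription factor Irf1 3.69 ± 0.734 FPKM (n = 6 each). Their log2 fold changes were 0.27, -0.09 and 0.27, and 0 of the 9 listed genes was called (5 positive, 4 negative, median 0.06). The lipopolysaccharide receptor Tlr4, picked out after its values were seen, was 2.98 to 3.60 FPKM in Cxcr4+ and 2.90, 0.41 and 2.79 FPKM in Cxcr4-. Its groups did not overlap, as for 10.4% of all genes tested. The size of its log2 fold change, 0.69 (unadjusted p = 0.295, edgeR), leans on Cxcr4- library 2. For Arg1, the factors Cebpb and Hif1a measured 80.4 ± 21.9 FPKM (n = 6) and 16.8 to 23.9 FPKM, with log2 fold changes of -0.00 and 0.06. Adora2a, an adenosine receptor, gave 1.64 ± 0.331 FPKM in Cxcr4+ and 2.13 ± 0.568 FPKM in Cxcr4- (log2 fold change -0.38, adjusted p = 0.999, edgeR). Its relative Adora2b, also picked out after its values were seen, was 0.729 to 1.17 FPKM in Cxcr4+ and 0.398 to 0.636 FPKM in Cxcr4- (unadjusted p = 0.0308, adjusted p = 0.998, edgeR). Of the 8 listed genes, 7 were tested and 0 called (4 positive, 3 negative, median 0.04), while Pparg was too low to test.

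Over all 9 lists, 65 of 72 genes were tested and 0 were called in either direction by edgeR, with 39 positive and 26 negative log2 fold changes and a median of 0.04. An unadjusted p under 0.05 (edgeR) was seen for 4 of 65, against 4.85% of all genes tested. Groups that did not overlap were seen for 5 genes higher in Cxcr4+ (Ddah1 and Adora2b among them) and 1 lower (Qdpr), or 6 of 65 against 10.4% of all genes tested.

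**Figure D4:**
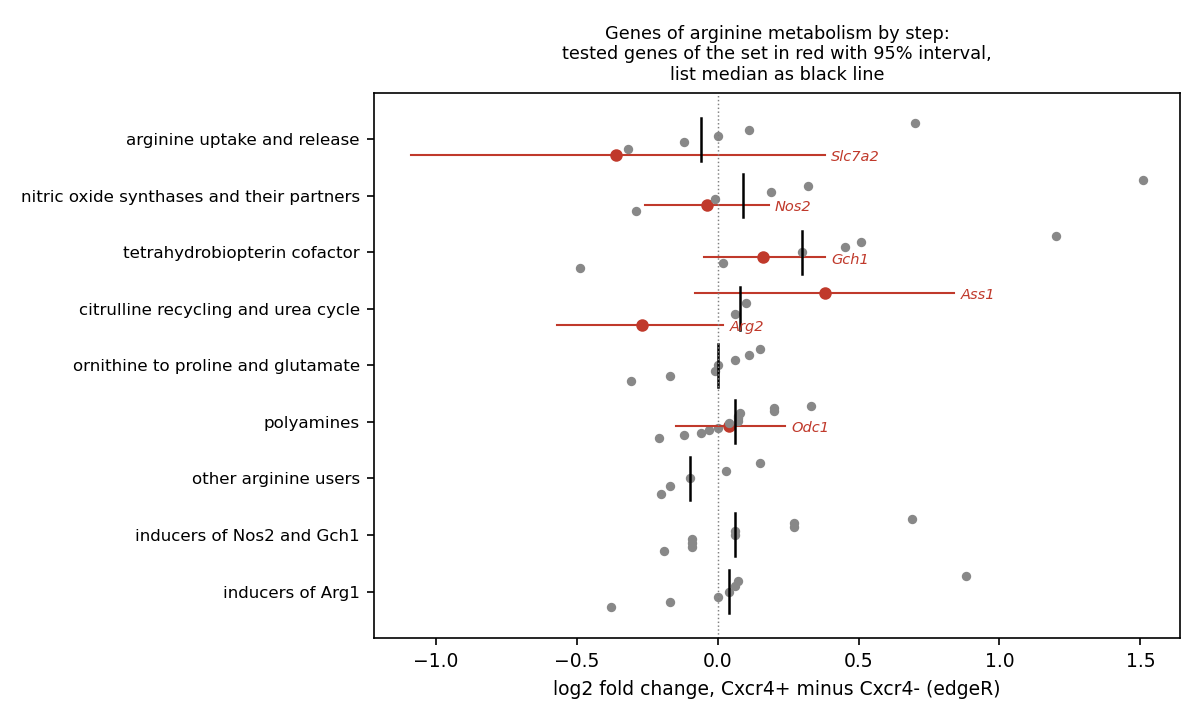
Log2 fold change (Cxcr4+ minus Cxcr4-, edgeR) of the 65 tested genes in 9 lists, grey points for single genes, red points with 95% intervals for the 6 tested genes of the set and a black line for the median of each list. All 6 red intervals cross 0, and list medians lie between -0.1 and 0.3.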

How the data were processed

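RNA of 3 Cxcr4+ and 3 Cxcr4- macrophage libraries was sequenced. The authors deposited 1 table with an estimated count and an FPKM value per gene and library, 12 value columns in all, each matched by name to 1 library. Per the submitters' processing notes it was made with cutadapt, HISAT2 and StringTie on GRCm39. For tool versions, annotation release, counting settings and strand, the details were not given in the sources used here. Deposited counts are whole numbers, and the FPKM values, also deposited by the authors, were used for levels, ratios and the limma alternatives.

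Counts were tested with edgeR 4.0.16 (R 4.3.3): filterByExpr with a minimum count of 10 and a minimum total of 15, TMM scaling, quasi-likelihood F test with group as the only term, and Benjamini-Hochberg adjustment over 16031 genes at 0.05. DESeq2 1.42.0, limma 3.58.1 on log2(FPKM + 1) and log2(FPKM + 0.1), other scalings and filters, batch and block terms, and leaving out each library were alternatives. The fit was tested on simulated data. Libraries held 46444934 to 55740671 counts each. Standard errors and 95% intervals of fold changes come from the spread between libraries in the edgeR fit. Log2 CPM used a prior count of 2.

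The genes and lists were chosen with earlier results of these data known, and support nothing by their choice. Motifs were chosen after the data were seen. Genes named from each list are the 2 of highest mean FPKM and the 1 of smallest unadjusted p among those with a mean of at least 1 FPKM, besides any past the threshold. For likeness, the 3 genes with the largest Pearson r to Nos2 are named, leaving out predicted genes and pseudogenes. The same rule for Arg1 was not applied, since Arg1 was at or under the detection limit. Because Arg1 had 0 counts in 1 library, its ratio to Nos2 used a limit of 12 counts in place of the FPKM alone, a change made after the data were seen. Of 72 listed genes 72 were found in the table, 2 by an older symbol (Pycr3, Rars1). Some genes that the naming rule picks are not reported here.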

Additional observations from a re-analysis of the deposited data

How the results depend on the processing

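None of the 6 tested genes of the set was called under any of 18 alternatives. The sign turned only for Nos2, to 0.03 without Cxcr4- replicate 1 (range -0.11 to 0.03 with each library left out), and for Odc1, to -0.02 with libraries 1 and 3 alone. The cause was not tested. The number of genes called over the whole table, 5, became 63 with DESeq2 and 2 with limma on log2(FPKM + 1), and 1 to 9 when each library was left out (9 without Cxcr4+ replicate 2, and 1 when the library left out was replicate 1 or 3 of Cxcr4+ or replicate 1 of Cxcr4-). Among the 65 pathway genes, DESeq2 called 1, and 0 were called under the other 17 alternatives. The difference in the Nos2 to Arg1 ratio, 0.09, became -0.05 with 1 FPKM added to each gene and -0.55 with a limit of 3 counts for Arg1, an alternative chosen after seeing the data, and ran from -0.02 to 0.18 with each library left out, being -0.02 without Cxcr4- replicate 2. The cause of the change without Cxcr4- replicate 2 was not tested. The ratio of Nos2 to both arginases ran from 0.05 to 0.35 with each library left out. With the replicate block, which takes replicate numbers as pairs, 0 genes were called over the table, 1495 had an unadjusted p under 0.05 in place of 777, and the ratio to both arginases kept its difference of 0.23 (exact sign-flip permutation p = 0.25, the smallest that 3 pairs allow, with all 3 differences positive). Deviations of same-numbered libraries correlated at 0.038, 0.141 and 0.045, all positive. Those of differently numbered libraries ran from -0.089 to 0.052. Not every same-numbered pair passed 0.1, a limit that cannot tell whether such libraries share mice. The main fit took no pairs, although the libraries numbered 2 were closer to each other than to the other 4. Cxcr4+ library 1 correlated best with Cxcr4- library 3. Depth limits Arg1 above all, since its counts lie around the limit of 12.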
